A study of Mus musculus with 12 samples.

Results

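Glycolysis, the pentose phosphate pathway and the TCA cycle are described here through 50 listed genes for glucose and lactate carriers, enzymes and the kinases that set their activity. Each gene was represented by the probe set that names it alone and has the highest mean over the 12 arrays. Of the 50 genes, 46 were measured in this way, out of 19938 genes with such a probe set. Gpi1, Eno1 and G6pdx matched no named probe set, and all 25 probe sets of Gapdh name other genes as well. The study measured gene expression on Affymetrix mouse arrays in NP-specific plasma cells of the bone marrow, 6 arrays from Zbtb32-/- donor cells and 6 from wild-type donor cells. Zbtb32 encodes a BTB domain repressor with zinc fingers, and the study set recall plasma cells without it against wild-type ones. In both groups whole splenocytes of CD45.2 donors immune to NP-CGG (the hapten NP on a protein carrier) were moved into CD45.1 recipients, which were then challenged with NP-CGG, and cells were sorted 7 days later. The deletion was thus carried by every donor cell, T cells included, and not by B cells alone, while the recipients' own cells lacked it. The sort kept B220- CD138+ cells that bound NP and bore CD45.2, and left out cells with Ly6g, CD11b or CD45.1. The labels state no donor age.

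Glycolysis splits glucose into pyruvate, which is reduced to lactate by lactate dehydrogenase or enters mitochondria through the pyruvate dehydrogenase complex. The TCA cycle then oxidises the acetyl group, and the pentose phosphate pathway draws glucose 6-phosphate into NADPH and ribose 5-phosphate. Plasma cells are known to take up much glucose, a large part of which goes into the sugar chains of secreted antibody, and to use pyruvate in mitochondria for long survival.

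All values are log2 RMA values, and all differences are Zbtb32-/- minus wild type. Array medians lay between 6.28 and 6.43. The 13 plasma cell markers averaged 11.16 ± 0.21 in Zbtb32-/- arrays and 11.06 ± 0.27 in wild-type arrays (SD, n = 6 each), with Xbp1 and Jchain among the highest. All 14 neutrophil markers also passed the filter on low values, with list means of 8.94 to 12.22 in Zbtb32-/- arrays and 8.08 to 10.92 in wild-type arrays, although the gate left out Ly6g and CD11b. In such bulk samples fewer cells of a type and less RNA per cell cannot be told apart. Zbtb32 itself gave 6.47, 6.53 and 6.73 (lowest, median and highest) in Zbtb32-/- arrays and 6.39, 6.68 and 6.88 in wild-type arrays, a difference of -0.11 (SE 0.09, unadjusted p = 0.255 in the limma fit). The labels do not say which stretch was deleted, so the value does not check them.

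None of the 46 enzymes and carriers passed the test between genotypes. With limma and Benjamini-Hochberg adjustment over 14993 genes, 0 members were higher and 0 lower, against 0% of all genes in each direction, and the smallest adjusted p of any gene was 0.933. At an unadjusted p under 0.05 there were 3 members with a positive difference (6.52%, against 2.83% of all genes) and 0 with a negative one (against 1.45%). These 3 were Sucla2, Ldha and Slc2a1. No member had groups that did not overlap, which 0.08% of all genes did upward and 0.0734% downward. The sign of the difference was positive for 40 of 46 members, against 52.9% of all genes. The median difference was 0.14 over the members and 0.01 over all genes tested.

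Most of these genes lay high on the arrays, where differences over all genes were also mostly positive. In the highest decile of genes by mean level, which held 17 members, 84.6% of all genes had a positive difference and their median was 0.13, against a median of 0.17 over the 17 members. In all, 30 members lay in the 3 highest deciles, and 33 of 46 lay above the median difference of their own decile. Per array, the mean over the 46 members was 8.74 ± 0.05 in Zbtb32-/- arrays and 8.59 ± 0.17 in wild-type arrays (SD, n = 6 each), a difference of 0.15 (SE 0.07, 95% interval -0.0032 to 0.31), while the mean over all genes tested differed by 0.03 (SE 0.02). The wild-type mean lay below all 6 Zbtb32-/- arrays, and 4 of 6 wild-type arrays lay below the lowest Zbtb32-/- array. The other wild-type arrays, replicates 1 and 3, lay within or above the Zbtb32-/- range. Wild-type replicates 2 and 6 had the lowest means over the members of all arrays, at 8.43 each. Leaving out these arrays had to shrink the difference, which was then 0.07. The 95% interval excluded a 2-fold change for 45 of 46 members (95.3% of all genes), Slc2a3 being the exception, and a 1.5-fold change for 31 of 46 (73.4% of all genes).

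**Figure D1:**
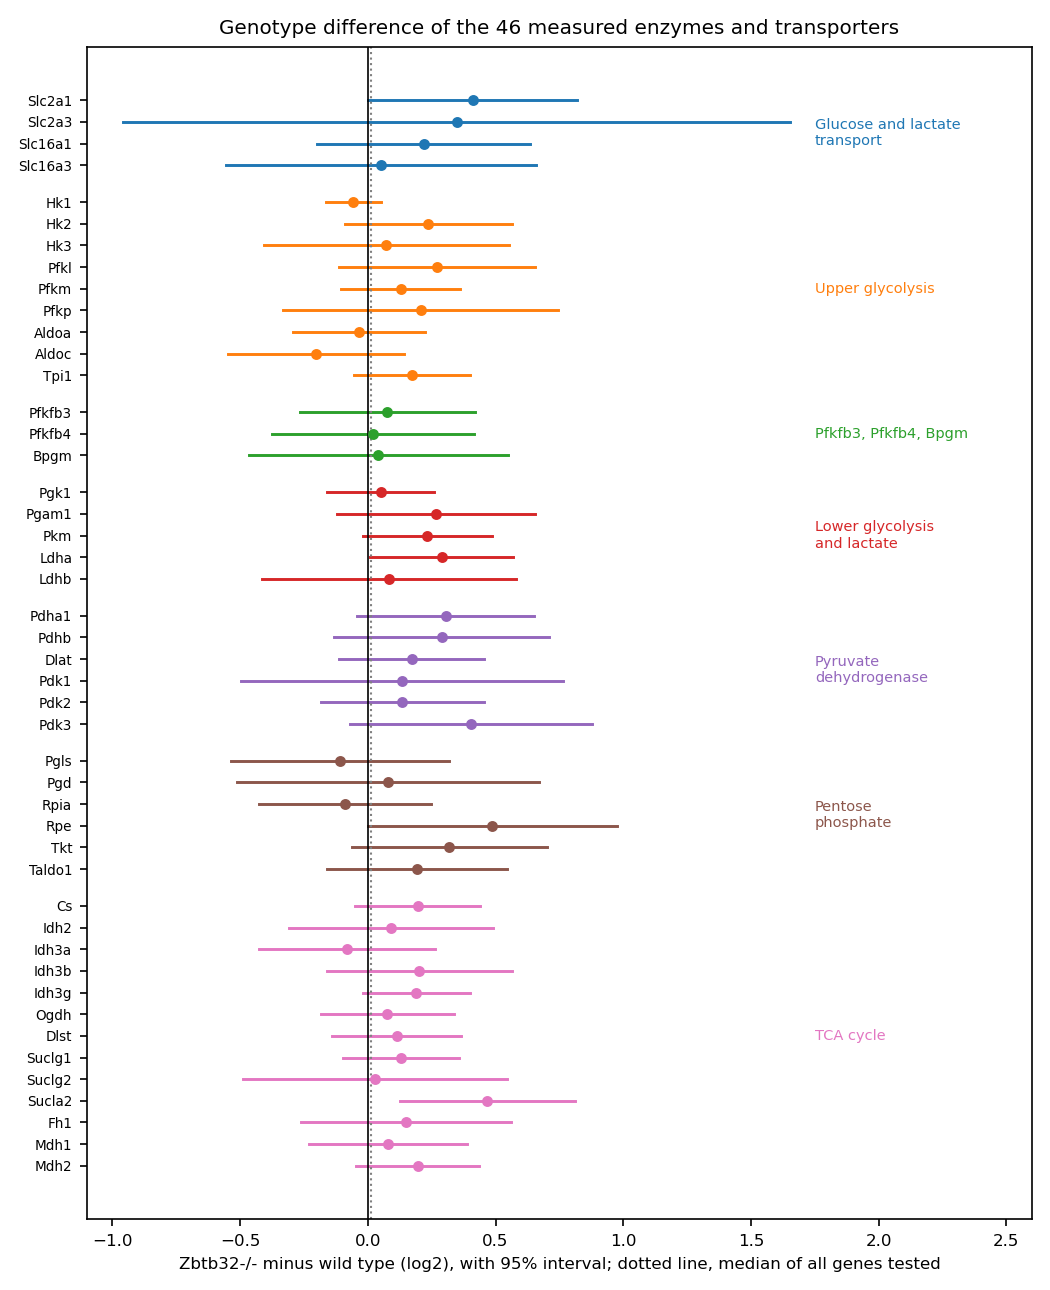
Difference of each of the 46 measured genes, Zbtb32-/- minus wild type, on the log2 axis with its 95% interval from limma (n = 6 arrays each), grouped by pathway. The points of 40 genes lie to the right of 0, most intervals cross 0, and Slc2a3 has the widest interval.

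Marker lists of other cells and of cell division differed in both directions. The 14 measured markers of cell division averaged 9.78 ± 0.10 in Zbtb32-/- arrays and 9.47 ± 0.23 in wild-type arrays (SD, n = 6 each), a difference of 0.31 (SE 0.10). Of these 14 were positive (52.9% of all genes), 6 at an unadjusted p under 0.05 by limma (2.83% of all genes upward). As over all genes, 0 of the 14 passed the adjusted test. The 9 erythroid markers differed by 0.35 (SE 0.29), and with their mean as a covariate the difference over the 46 members was 0.09 (SE 0.05). When the covariate averaged the erythroid list with those of monocytes, neutrophils and T and NK cells, this difference was 0.15 (SE 0.07). Without a covariate it was also 0.15 (SE 0.07). The neutrophil list differed by 0.32 (SE 0.65), the monocyte list by -0.10 (SE 0.34), the B cell list by -0.24 (SE 0.24) and the T and NK list by -0.20 (SE 0.16). The part of these cells in the members' differences was not tested.

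The start regions of the 3 members at an unadjusted p under 0.05 are shown because they let the letters near the starts be set beside the values. Windows of 300 bases come from RefSeq on build GRCm38.p6, all on the + strand, and capitals mark the letters ACGTG or GCGTG on either strand, the core bound by hypoxia-inducible factors. The Slc2a1 window lies at chr4:119108495-119108794, the 2 Ldha windows at chr7:46845554-46845853 and chr7:46846832-46847131, and the Sucla2 window at chr14:73552536-73552835.
Slc2a1: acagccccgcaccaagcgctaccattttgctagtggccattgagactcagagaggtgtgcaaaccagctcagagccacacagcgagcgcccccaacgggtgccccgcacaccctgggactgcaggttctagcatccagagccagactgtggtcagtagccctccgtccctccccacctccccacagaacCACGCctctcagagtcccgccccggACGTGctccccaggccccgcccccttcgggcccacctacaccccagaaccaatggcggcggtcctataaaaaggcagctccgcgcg
Ldha, upstream start: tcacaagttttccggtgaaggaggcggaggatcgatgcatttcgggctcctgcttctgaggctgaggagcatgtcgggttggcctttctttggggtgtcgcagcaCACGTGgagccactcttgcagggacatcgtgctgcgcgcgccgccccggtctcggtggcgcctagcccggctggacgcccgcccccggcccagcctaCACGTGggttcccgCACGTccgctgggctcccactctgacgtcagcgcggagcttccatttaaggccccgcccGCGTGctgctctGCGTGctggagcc
Ldha, downstream start: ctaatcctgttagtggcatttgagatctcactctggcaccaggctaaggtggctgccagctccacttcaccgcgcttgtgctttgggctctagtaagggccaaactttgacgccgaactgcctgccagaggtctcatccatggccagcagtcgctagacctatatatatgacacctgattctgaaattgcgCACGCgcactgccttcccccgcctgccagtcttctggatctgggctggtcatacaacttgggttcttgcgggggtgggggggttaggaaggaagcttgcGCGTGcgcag
Sucla2: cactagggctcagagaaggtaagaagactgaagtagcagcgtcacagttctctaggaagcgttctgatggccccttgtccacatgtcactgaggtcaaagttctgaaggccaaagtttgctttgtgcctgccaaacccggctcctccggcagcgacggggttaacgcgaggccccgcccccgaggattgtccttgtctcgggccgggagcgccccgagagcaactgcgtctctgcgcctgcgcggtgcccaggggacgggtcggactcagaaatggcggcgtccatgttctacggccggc
The Slc2a1 window held 2 capital runs, the upstream Ldha window 5, the downstream Ldha window 2 and the Sucla2 window 0. In the upstream Ldha window 2 of the runs read CACGTG, the E-box known as a Myc site, which overlaps ACGTG on both strands. Of the 46 measured members 44 had windows, all but Slc2a3 and Idh3a. ACGTG or GCGTG stood in a window of 35 of these 44 genes (79.6%), against 62.1% of the 11852 tested genes that had windows. CACGTG stood in 6 of 44 (13.6%, against 10.9%), TATAAA on either strand in 1 of 44, Slc2a1 (2.27%, against 9.92%), and CCAAT on either strand in 22 of 44 (50%, against 41.1%). The members' windows had a median GC content of 60.8%, against 59.7%, and a median of 20 CG pairs, against 18. Genes can have several windows, 62 in all for these 44 members and 14821 for the 11852 genes. By window, ACGTG or GCGTG stood in 74.19% of the members' windows, against 57.25%. Such matches describe letters only.

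Of the 4 carriers of glucose and lactate all had positive differences, none past the test. Slc2a1 encodes GLUT1, the glucose carrier of most dividing cells. It gave 8.77, 8.93 and 9.12 (lowest, median and highest) in Zbtb32-/- arrays and 7.74, 8.69 and 9.01 in wild-type arrays, a difference of 0.41 (SE 0.19, adjusted p = 0.933 by limma). The Zbtb32-/- arrays lay close together, and 3 of 6 wild-type arrays lay below all of them, lowest in replicates 2 and 6. Leaving out these 2 lowest arrays had to shrink the difference, which was then 0.14. Slc2a3 encodes GLUT3, a glucose carrier of neurons that is also strong in neutrophils. It gave 7.89, 8.87 and 10.97 in Zbtb32-/- arrays and 6.60, 8.96 and 10.17 in wild-type arrays, a difference of 0.35 (SE 0.61). The groups overlapped almost entirely, and the range over the 12 arrays, 4.37 log2 units, was the largest of the 46 genes. Slc16a1, the lactate and pyruvate carrier MCT1, gave 6.67, 6.93 and 7.57 in Zbtb32-/- arrays and 6.23, 6.88 and 7.26 in wild-type arrays, a difference of 0.22 (SE 0.19). The mean over the 4 carriers was 8.06 ± 0.41 in Zbtb32-/- arrays and 7.80 ± 0.54 in wild-type arrays, a difference of 0.26 (SE 0.28, SD over n = 6 each), with overlapping groups.

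Upper glycolysis, from hexokinase to triose phosphate isomerase, had 6 of 9 measured members positive and 3 negative, none past the test. The group mean was 8.51 ± 0.06 in Zbtb32-/- arrays and 8.42 ± 0.16 in wild-type arrays (SD, n = 6 each), a difference of 0.09 (SE 0.07). Hexokinases trap glucose in the cell as glucose 6-phosphate. Hk2, the inducible isoform, gave 6.74, 7.14 and 7.29 in Zbtb32-/- arrays and 6.41, 6.85 and 7.29 in wild-type arrays, a difference of 0.24 (SE 0.15). The highest single array was wild-type replicate 1, so the groups overlapped. Hk1, the hexokinase of most tissues, is uncertain here, because the probe set chosen by its level carries only 1 accession, which 16 probe sets naming both Hk1 and Rpl17, a ribosomal protein gene, carry too. That probe set gave 12.34, 12.43 and 12.53 in Zbtb32-/- arrays and 12.42, 12.49 and 12.55 in wild-type arrays, a difference of -0.06 (SE 0.05). The other probe set of Hk1 gave 6.52, 6.70 and 7.28 in Zbtb32-/- arrays and 6.37, 6.80 and 7.09 in wild-type arrays, a difference of 0.07 (SE 0.16). With it the group mean differed by 0.10 (SE 0.08).

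None of the later steps of upper glycolysis passed the test. Aldoc, the brain-type aldolase, gave 6.43, 6.58 and 6.86 in Zbtb32-/- arrays and 6.45, 6.81 and 7.47 in wild-type arrays, a difference of -0.20 (SE 0.16), the most negative of the 46. The highest value was that of wild-type replicate 2, and the groups overlapped. Tpi1, triose phosphate isomerase, gave 10.15, 10.27 and 10.54 in Zbtb32-/- arrays and 9.93, 10.11 and 10.32 in wild-type arrays, a difference of 0.17 (SE 0.11). All 6 Zbtb32-/- arrays exceeded the wild-type mean of Tpi1, and 3 of 6 wild-type arrays lay below them all. The 3 phosphofructokinase subunits, which commit sugar to glycolysis, differed by 0.13 to 0.27.

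The small group of Pfkfb3, Pfkfb4 and Bpgm had 3 of 3 positive differences of 0.02 to 0.08, none past the test. Pfkfb3 makes fructose 2,6-bisphosphate, the main activator of phosphofructokinase. It gave 6.57, 6.79 and 7.26 in Zbtb32-/- arrays and 6.39, 6.76 and 7.17 in wild-type arrays, a difference of 0.08 (SE 0.16). Bpgm, which makes the 2,3-bisphosphoglycerate of red cells, gave 7.82, 8.44 and 8.74 in Zbtb32-/- arrays and 7.45, 8.49 and 8.84 in wild-type arrays, a difference of 0.04 (SE 0.24). In both genes the groups overlapped almost wholly. The mean over the 3 genes was 7.18 ± 0.16 in Zbtb32-/- arrays and 7.13 ± 0.14 in wild-type arrays (SD, n = 6 each), a difference of 0.05 (SE 0.09).

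Lower glycolysis and lactate dehydrogenase had 5 of 5 measured members positive, none past the test, with Gapdh and Eno1 missing. The mean over its 5 measured members was 9.35 ± 0.16 in Zbtb32-/- arrays and 9.16 ± 0.08 in wild-type arrays (SD, n = 6 each), a difference of 0.18 (SE 0.07, 95% interval 0.02 to 0.35). Its interval was the only one of the 7 groups to lie above 0, with genotype as the sole term. In this group 5 of 6 wild-type arrays lay below the lowest Zbtb32-/- array, some of them by very little. That array, Zbtb32-/- replicate 5, had a group mean of 9.1778, against 9.1773 in wild-type replicate 5 and 9.1715 in wild-type replicate 1. The difference was 0.09 in replicates 1 to 3 and 0.28 in replicates 4 to 6, and both intervals included 0. So did those under renewed quantile normalization (0.13), with array weights (0.12), with the erythroid covariate (0.15) and without wild-type replicates 2 and 6 (0.16). On leaving out 1 array the interval included 0 without Zbtb32-/- replicate 3 or 4 or wild-type replicate 2, 4 or 6, at differences of 0.16 to 0.18. Ldha, the lactate dehydrogenase subunit that favours lactate formation, had 1 probe set. It gave 9.74, 9.995 and 10.32 in Zbtb32-/- arrays and 9.46, 9.73 and 9.92 in wild-type arrays, a difference of 0.29 (SE 0.13, adjusted p = 0.933 by limma). In Ldha 3 of 6 Zbtb32-/- arrays lay above all wild-type arrays and 3 of 6 wild-type arrays lay below all Zbtb32-/- arrays. Pkm, pyruvate kinase, gave 9.81, 9.88 and 10.01 in Zbtb32-/- arrays and 9.45, 9.64 and 9.99 in wild-type arrays, a difference of 0.23 (SE 0.12). Its other probe set differed by 0.30. In Pkm 4 of 6 wild-type arrays lay below all Zbtb32-/- arrays, and wild-type replicates 1 and 3 lay among them. Pgam1, the phosphoglycerate mutase, gave 10.07, 10.44 and 10.93 in Zbtb32-/- arrays and 9.57, 10.23 and 10.61 in wild-type arrays, a difference of 0.27 (SE 0.18). Its other 2 probe sets held identical values and differed by 0.22. Pgk1 also had 2 probe sets of identical values, so for both genes transcripts of near-identical copies cannot be told apart.

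**Figure D2:**
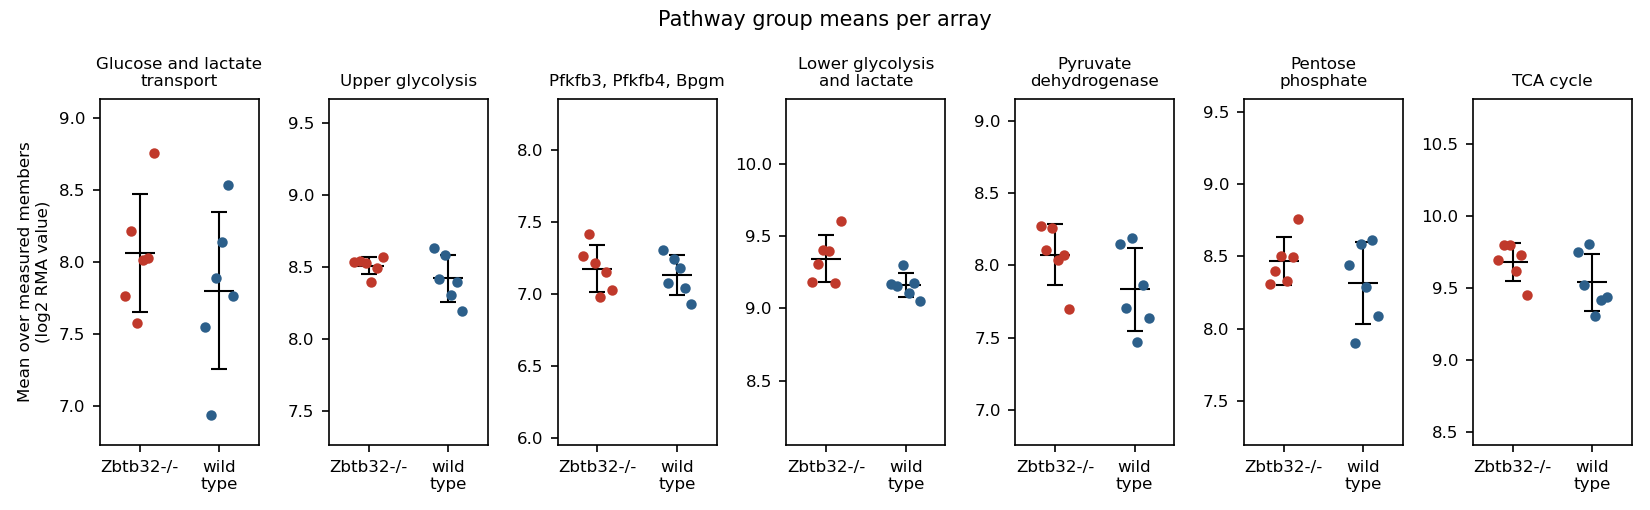
Mean over the measured members of each of the 7 pathway groups per array (points, log2 RMA value), Zbtb32-/- left and wild type right, with the mean and SD of 6 arrays (bars); all panels span the same number of log2 units. By count of arrays lower glycolysis and lactate has the least overlap, with 5 of 6 wild-type arrays below the lowest Zbtb32-/- array. Of these, wild-type replicates 1 and 5 lie almost level with it. Transport has the widest spread.

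The pyruvate dehydrogenase complex and the kinases that switch it off had 6 of 6 positive differences, none past the test. The group mean was 8.07 ± 0.21 in Zbtb32-/- arrays and 7.84 ± 0.29 in wild-type arrays (SD, n = 6 each), a difference of 0.24 (SE 0.15). Pdha1, the catalytic alpha subunit, gave 7.79, 8.20 and 8.38 in Zbtb32-/- arrays and 7.32, 7.91 and 8.26 in wild-type arrays, a difference of 0.30 (SE 0.16). Pdhb, the beta subunit, gave 9.40, 9.94 and 10.34 in Zbtb32-/- arrays and 9.15, 9.59 and 10.22 in wild-type arrays, a difference of 0.29 (SE 0.20). In both subunits Zbtb32-/- replicate 6 was the lowest of its group, and the groups overlapped. Pdk3, a kinase that inhibits the complex, gave 8.58, 9.24 and 9.44 in Zbtb32-/- arrays and 8.14, 8.77 and 9.38 in wild-type arrays, a difference of 0.40 (SE 0.22). Subunits and inhibiting kinases thus had differences of the same sign. The Pdk3 difference was 0.14 in replicates 1 to 3 and 0.67 in replicates 4 to 6.

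The pentose phosphate pathway had 4 of 6 measured members positive and 2 negative, none past the test, with G6pdx, its entry enzyme, missing. The group mean was 8.47 ± 0.17 in Zbtb32-/- arrays and 8.32 ± 0.28 in wild-type arrays (SD, n = 6 each), a difference of 0.15 (SE 0.13). In the oxidative branch, Pgd, the second NADPH-forming step, gave 8.69, 9.51 and 10.58 in Zbtb32-/- arrays and 8.93, 9.38 and 10.11 in wild-type arrays, a difference of 0.08 (SE 0.27). The highest array of Pgd was Zbtb32-/- replicate 6 and the lowest Zbtb32-/- replicate 4. In the branch that exchanges sugars, Rpe, ribulose phosphate epimerase, gave 7.19, 7.73 and 7.85 in Zbtb32-/- arrays and 6.41, 7.11 and 7.87 in wild-type arrays. Its difference of 0.49 (SE 0.23, unadjusted p = 0.0502 and adjusted p = 0.933 by limma) was the largest of the 46. In Rpe 4 of 6 wild-type arrays lay below all Zbtb32-/- arrays, while wild-type replicate 3 was the highest of the 12, and the difference was 0.11 in replicates 1 to 3 and 0.86 in replicates 4 to 6. Tkt, transketolase, gave 8.07, 8.55 and 9.22 in Zbtb32-/- arrays and 7.94, 8.28 and 8.49 in wild-type arrays, a difference of 0.32 (SE 0.18). In Tkt 4 of 6 Zbtb32-/- arrays lay above all wild-type arrays. Taldo1, transaldolase, gave 9.76, 9.96 and 10.48 in Zbtb32-/- arrays and 9.24, 9.83 and 10.16 in wild-type arrays, a difference of 0.19 (SE 0.16).

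The TCA cycle had 12 of 13 members positive, none past the test, and Idh3a, named here after its value was seen, was the exception at -0.08. The group mean was 9.68 ± 0.13 in Zbtb32-/- arrays and 9.54 ± 0.20 in wild-type arrays (SD, n = 6 each), a difference of 0.14 (SE 0.10). Sucla2, the subunit that makes succinyl-CoA ligase form ATP, gave 8.43, 8.78 and 8.93 in Zbtb32-/- arrays and 7.98, 8.10 and 8.74 in wild-type arrays. Its difference of 0.47 (SE 0.16, 95% interval 0.13 to 0.81, adjusted p = 0.933 by limma) had the smallest unadjusted p of the 46, 0.0111. In Sucla2 4 of 6 wild-type arrays lay below all Zbtb32-/- arrays and 4 of 6 Zbtb32-/- arrays lay above all wild-type arrays, and the difference was 0.33 in replicates 1 to 3 and 0.61 in replicates 4 to 6. Suclg2, the subunit of the GTP-forming enzyme, gave 7.37, 8.10 and 8.44 in Zbtb32-/- arrays and 7.08, 8.20 and 8.56 in wild-type arrays, a difference of 0.03 (SE 0.24). The other probe set of Suclg2 differed by 0.07 (SE 0.18). Idh3g, a subunit of the NAD-linked isocitrate dehydrogenase, gave 11.02, 11.21 and 11.33 in Zbtb32-/- arrays and 10.75, 11.02 and 11.26 in wild-type arrays, a difference of 0.19 (SE 0.10). In Idh3g all 6 Zbtb32-/- arrays exceeded the wild-type mean. Mdh1, the malate dehydrogenase of the cytosol, gave 11.13, 11.55 and 11.83 in Zbtb32-/- arrays and 11.10, 11.41 and 11.83 in wild-type arrays, a difference of 0.08 (SE 0.14). Mdh2, its mitochondrial counterpart, gave 10.77, 10.92 and 11.06 in Zbtb32-/- arrays and 10.35, 10.74 and 11.07 in wild-type arrays, a difference of 0.20 (SE 0.11). The groups of Mdh1 and Mdh2 overlapped, with wild-type replicate 4 the lowest array of both.

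**Figure D3:**
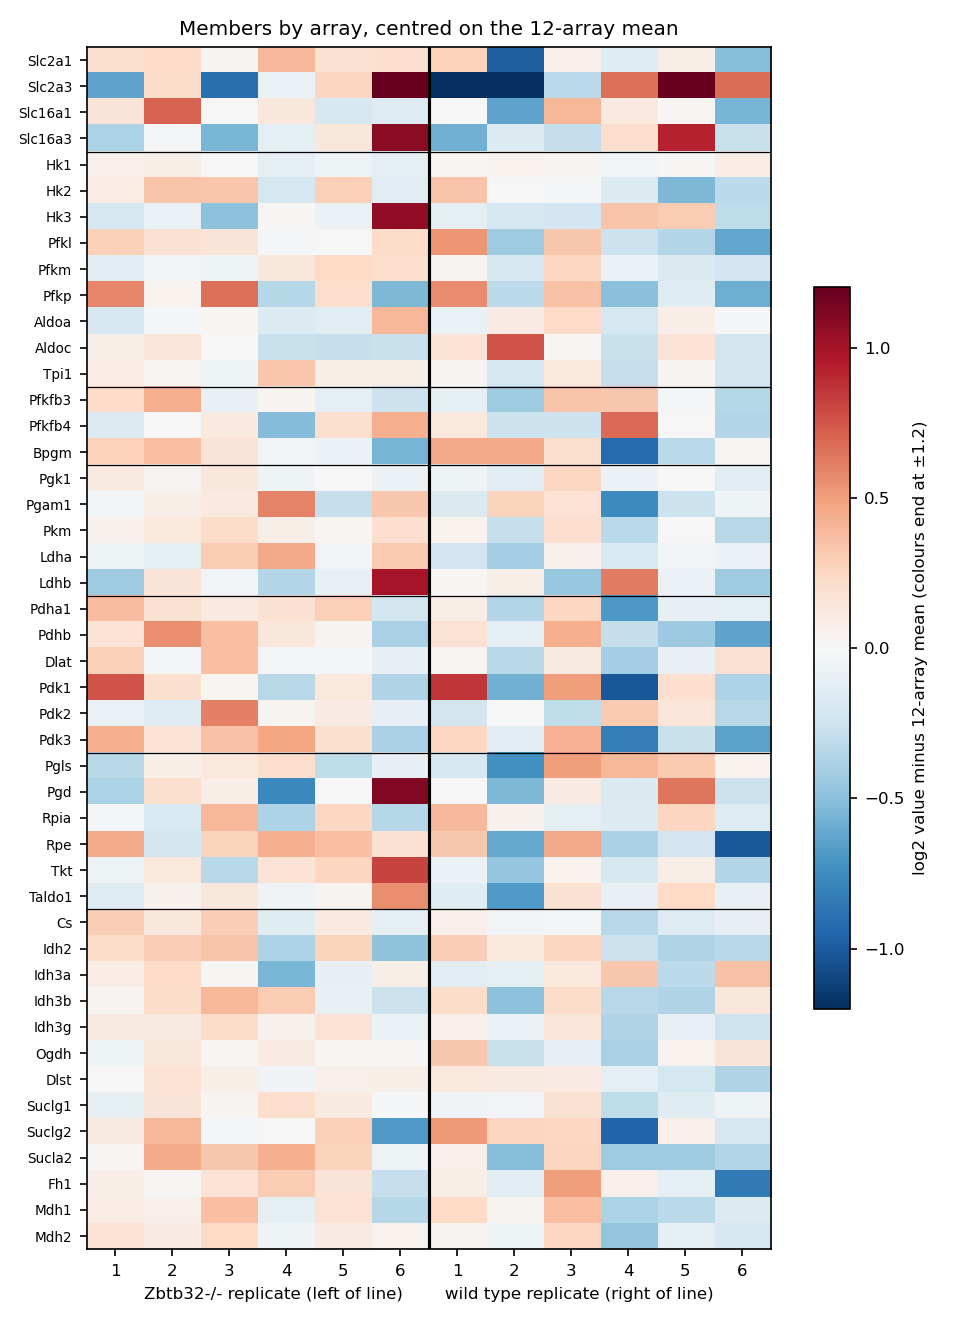
Log2 value of each of the 46 genes minus its mean over the 12 arrays (colour), with Zbtb32-/- replicates left of the line, wild-type replicates right of it and pathway groups separated by thin lines. Wild-type replicates 2, 4 and 6 are blue in many genes, and Slc2a3 has the strongest colours, lowest in wild-type replicate 2 and highest in Zbtb32-/- replicate 6.

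Isoenzymes of the same step were set against each other as a log ratio within each array, which shows unequal change and not which form is more abundant. None of the 16 pairs had groups that did not overlap or a 95% interval that excluded 0, and the differences of the log ratio ran from -0.29 to 0.44. For Sucla2 over Suclg2, the ATP-forming against the GTP-forming subunit, the log ratio was 0.66 ± 0.29 in Zbtb32-/- arrays and 0.22 ± 0.46 in wild-type arrays (SD, n = 6 each). It differed by 0.44 (SE 0.22, 95% interval -0.05 to 0.93), with 6 of 6 Zbtb32-/- arrays above the wild-type mean. Hk1 over Hk2 differed by -0.29 (SE 0.15, 95% interval -0.62 to 0.04), and by -0.16 (SE 0.22) with the other Hk1 probe set. Mdh1 over Mdh2, cytosol against mitochondrion, differed by -0.12 (SE 0.09). The log ratio of the glucose carriers Slc2a1 and Slc2a3 varied most between arrays, with an SD of 1.10 over the 12, from its highest value in wild-type replicate 1 to its lowest in Zbtb32-/- replicate 6, and differed by 0.06 (SE 0.67) between genotypes.

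**Figure D4:**
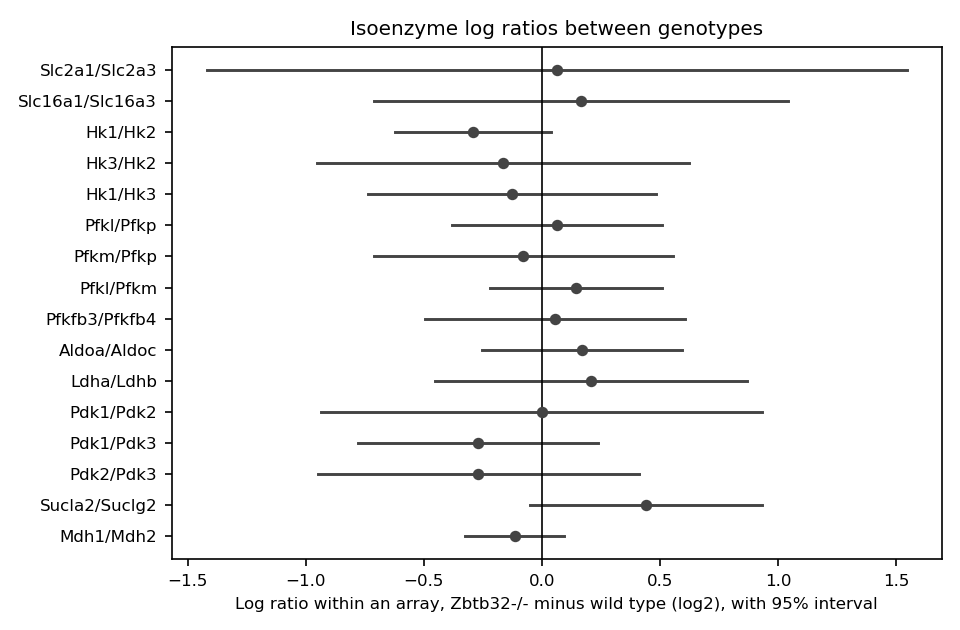
Difference between genotypes, Zbtb32-/- minus wild type, of the log2 ratio of 2 isoenzymes within an array, for 16 pairs with the 95% interval over 6 arrays each. Every interval crosses 0, Sucla2/Suclg2 lies farthest to the right at 0.44, and the interval of Slc2a1/Slc2a3 is the widest.

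Between arrays, Slc2a3 had a positive slope on the averaged marker lists of other marrow cells, and on neutrophil and monocyte markers taken alone. The mean over the lists of T and NK cells, neutrophils, monocytes and erythroid cells was 7.87 ± 0.43 in Zbtb32-/- arrays and 7.78 ± 0.51 in wild-type arrays (SD, n = 6 each), lowest in wild-type replicate 2 (6.85) and highest in Zbtb32-/- replicate 6 (8.62). With genotype as a term in limma, the slope on this mean was positive at an adjusted p under 0.05 for 2 of 46 members (2.4% of all genes tested) and negative for 0 (0.704%). Slc2a3 had a slope of 2.43 log2 units per unit of the marker mean (SE 0.26, adjusted p = 0.000308), and it passed in all 12 fits that left out 1 array. Taldo1 had a slope of 0.53 (SE 0.13, adjusted p = 0.0392), and it passed in 5 of those 12 fits and not with the replicate set as a term (adjusted p = 0.115). Slc2a1, the other glucose carrier, had a slope of 0.33 (SE 0.21, adjusted p = 0.402). On the neutrophil list alone Slc2a3 had a slope of 1.03 (SE 0.11) and on the monocyte list alone 1.96 (SE 0.20), both past the test. On the erythroid list alone its slope was 0.39 (SE 0.69, adjusted p = 0.895). With the neutrophil list alone 388 of 14914 genes passed with a positive slope and 143 with a negative one. Among the positive ones were 3 of 46 members, which were Slc2a3, Slc16a3, a lactate exporter, and Hk3, a hexokinase of myeloid cells. The same 3 passed with a positive slope with the monocyte list alone, as did 523 of all genes. With that list 452 genes, 2 members among them, had a negative one. Slc16a3 and Hk3 had an adjusted p by limma of 0.0489 each with the neutrophil list, and of 0.00251 and 0.0348 with the monocyte list. Both were named after their values were seen. On the mean over the 4 lists neither passed by limma. Slc16a3 had a slope of 0.79 (SE 0.25, adjusted p = 0.109) and Hk3 of 0.62 (SE 0.20, adjusted p = 0.113).

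The relation of Slc2a3 to the marker mean held within both sets of replicates. Over the 12 arrays Pearson's r was 0.942 (permutation p = 4e-05, adjusted over 12 relations 0.00024) and Spearman's rho 0.916 (permutation p = 4e-05, adjusted 0.00024). Without the 2 arrays farthest from the median, wild-type replicate 2 and Zbtb32-/- replicate 6, r was 0.849, and within replicates 1 to 3 it was 0.963 and within replicates 4 to 6 0.931. For Taldo1 r was 0.841 (permutation p = 0.00238, adjusted 0.00952) and rho 0.566 (permutation p = 0.0595, adjusted 0.0714), and without those 2 arrays r was 0.362, so this relation rested on them. Within replicates 1 to 3 and 4 to 6 the r of Taldo1 was 0.875 and 0.764. For Pgd r was 0.727 (adjusted permutation p = 0.0175) and rho 0.573 (adjusted permutation p = 0.0714), with r 0.476 without those arrays and 0.832 and 0.891 within the 2 sets. For Bpgm r was -0.70 (adjusted permutation p = 0.0175) and rho -0.73 (adjusted permutation p = 0.0196), with r -0.59 without them and -0.46 and -0.64 within the 2 sets. All genes of these relations were chosen by their slopes on this same mean, and the permutations took no account of that choice. In the limma fit over all genes the slopes of Pgd, Bpgm, Aldoc and Pdk3 did not pass. The permutations also took no account of the sets, between which Bpgm differed. Its slope was -0.66 (SE 0.21) with genotype as a term and -0.37 (SE 0.22, adjusted p = 0.520 by limma) with the set as a further term. The relations of Aldoc (r -0.68) and Pdk3 (r -0.44) had adjusted permutation p-values of 0.0483 and 0.158, with r -0.14 for Aldoc and -0.70 for Pdk3 without those arrays. Their sign differed between the sets, with r -0.79 and 0.11 for Aldoc and 0.64 and -0.63 for Pdk3 within replicates 1 to 3 and 4 to 6.

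**Figure D5:**
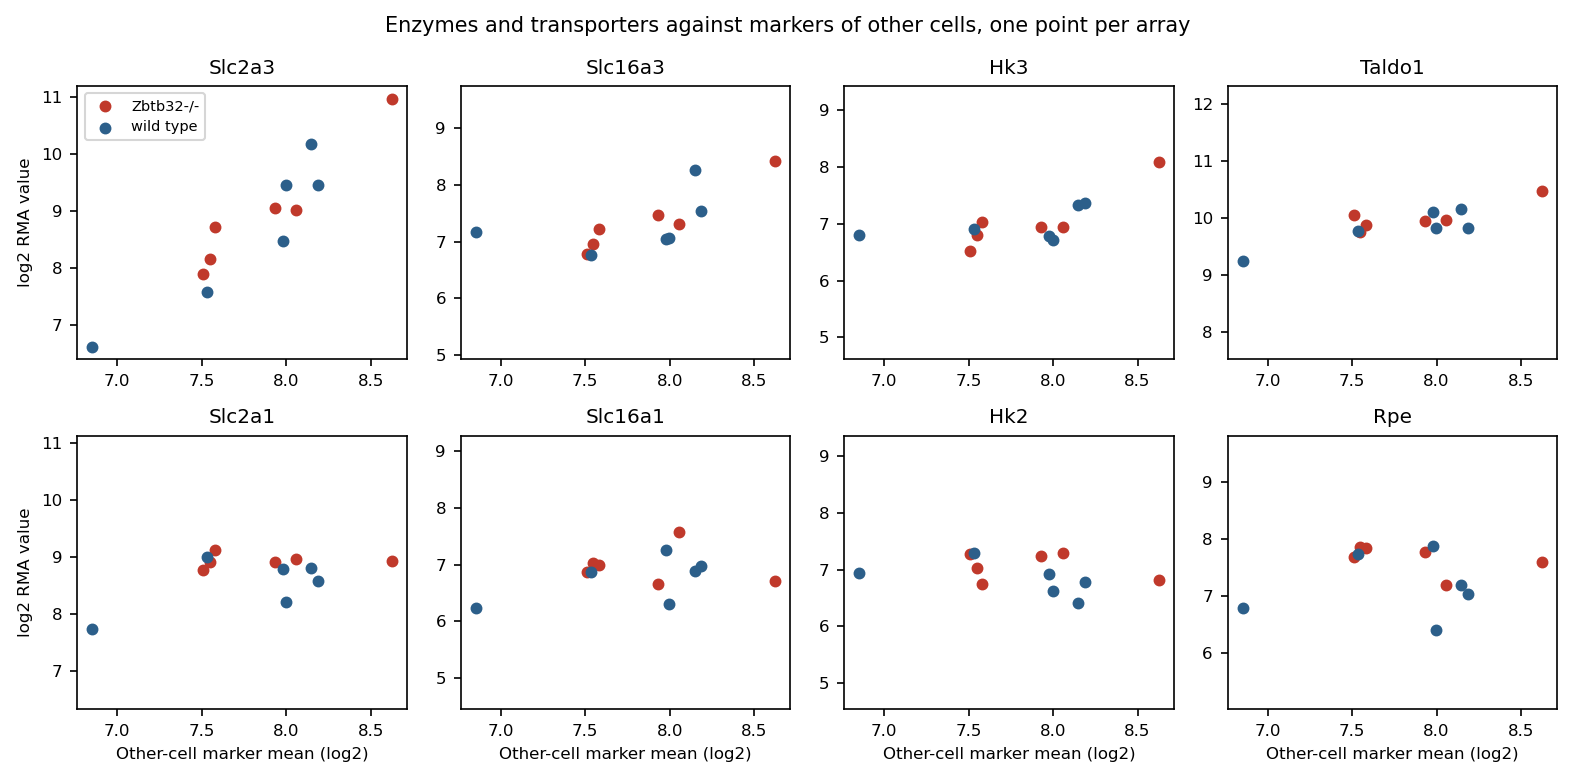
Log2 RMA value of 8 genes against the mean of the markers of other cells (log2), 1 point per array, Zbtb32-/- and wild type in separate colours, all panels with the same span. The points of Slc2a3 lie along a steep line in both groups (r = 0.942). The slopes of Slc2a3 and Taldo1 passed the test. Those of Slc16a3, Hk3, Slc2a1, Slc16a1, Hk2 and Rpe did not.

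The difference between genotypes was compared between replicates 1 to 3 and replicates 4 to 6, a split known from earlier results and not called a batch in the labels. The interaction passed for 0 of 46 members at an adjusted p under 0.05 (0% of all genes) and for 1 at an unadjusted p under 0.05 (3.86% of all genes). That member was Pfkm, the muscle-type phosphofructokinase, named after its value was seen, with a difference of -0.10 in replicates 1 to 3 and of 0.36 in replicates 4 to 6.

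Levels also differed between replicates 4 to 6 and replicates 1 to 3, with both genotypes in each set. By limma at an adjusted p under 0.05, 1 member was higher in replicates 4 to 6 (2.05% of all genes) and 4 were lower (4.47% of all genes). Slc2a3 was higher by 1.69 on the log2 scale. Pdhb differed by -0.53, Idh2, the NADP-linked isocitrate dehydrogenase of mitochondria, by -0.51, Mdh1 by -0.38 and Bpgm by -0.63, and of these Idh2 was named after its value was seen. What else set the replicates apart was not tested.

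Other genes of the same pathways did not pass either. Of 57 listed genes, among them succinate dehydrogenase subunits, pyruvate carriers and the hypoxia regulators Hif1a and Vhl, 51 were measured and 47 passed the filter on low values. Of these 30 had a positive and 17 a negative difference, against 52.9% positive over all genes. In either direction 0 passed the adjusted test, against 0% of all genes. At an unadjusted p under 0.05 there were 0, against 2.83% of all genes upward and 1.45% downward. The median difference of these other genes was 0.10, against 0.14 over the 46 members and 0.01 over all genes tested.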

How the data were processed

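Total RNA of 12 sorted samples, 6 of each genotype, was amplified, labelled with biotin and hybridised to 1 array each, per the labels' protocols. Each deposited value is the log2 level of a probe set. Per the submitters' processing notes, the authors used RMA and Affymetrix Expression Console, whose versions the notes do not state. RMA makes array distributions alike, so differences in total RNA are lost, and it compresses low values. Of 35556 probe sets, 21789 name 1 gene, 1621 several and 12146 none here. The deposited table names no genome build.

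Each gene's single-gene probe set of highest mean stood for it, and genes at or below the 25th percentile (5.49) were left out, leaving 14993, all 46 measured members included. The test was that of limma 3.58.1 under R 4.3.3 (eBayes with a trend, genotype as the term, two-sided), adjusted by Benjamini-Hochberg with a threshold of 0.05, a procedure also tested on simulated data. Group means per array and isoenzyme log ratios have SE and 95% intervals over arrays and no p. Correlations used 100000 permutations, the observed order included, two-sided. Tables and figures were made with pandas 2.3.3 and matplotlib 3.10.9 under Python 3.11.15. The number of arrays limits the precision: 95% intervals had a median width of 0.349 to either side for members. P-values measure the spread between these samples, which the series text calls biological replicates. The members, lists and tests were chosen with earlier results of these data known. Named by rule were Zbtb32, in each pathway group the 2 smallest p and the highest mean, the 3 isoenzyme pairs with the largest difference relative to its SE, the 3 members of each sign whose slope on markers of other cells was largest relative to its SE, and genes whose probe sets disagree in sign. Alternatives were another normalization, filter, probe set rule, variance model or covariate, array weights, a replicate block and left-out arrays. The other Hk1 probe set, and for slopes the replicate set and left-out arrays, were added after seeing the data.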

Additional observations from a re-analysis of the deposited data

Results flagged for a closer look

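In 2 of 66 groups of 6 arrays examined, 1 array lay far from the other 5, where chance gives about 1 in 20. Tpi1 was 10.54 in Zbtb32-/- replicate 4, with the other Zbtb32-/- arrays at 10.15 to 10.29. Pdk3 was 8.58 in Zbtb32-/- replicate 6, with the other Zbtb32-/- arrays at 9.13 to 9.44. The gap took up 0.639 of the group's range for Tpi1 and 0.635 for Pdk3, both past Dixon's 95% limit for groups of 6.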

How the results depend on the processing

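With limma, 0 of 46 members passed under every alternative run, and the count of genes was 0 under all but 1: over replicates 4 to 6 alone it was 1 (Rny1, -1.52, adjusted p = 0.0253, named after its value was seen). At an unadjusted p under 0.05 the members numbered 0 to 10, while genes numbered 337 (erythroid covariate) to 1416 (without wild-type replicate 3). There were 10 members without wild-type replicate 3, and 7 members and 1005 genes without wild-type replicate 1. Over replicates 1 to 3 there were 0 members and 341 genes, and without wild-type replicates 2 and 6 there were 0 members and 440 genes. The main fit had 3 members and 642 genes. The settings with 0 members thus also had fewer genes than the main fit, and those with 7 or 10 members had more. With the replicate block 0 genes and 0 members passed and 914 genes and 7 members had an unadjusted p under 0.05. With the replicate set as a term 0 genes and 0 members passed, and 959 genes and 7 members had an unadjusted p under 0.05. The deviations of same-numbered arrays correlated at 0.02 to 0.47 and 2 of 6 Zbtb32-/- arrays correlated best with their own number, so the numbers were not taken as pairs. With the replicate block the 95% interval was -0.04 to 0.40 for lower glycolysis and 0.02 to 0.46 for pyruvate dehydrogenase and its kinases, so the group whose interval lay above 0 changed. That of pyruvate dehydrogenase also lay above 0 without Zbtb32-/- replicate 6 (0.32). The mean over all members stayed positive, at 0.07 to 0.20, as did lower glycolysis (0.09 to 0.28), pyruvate dehydrogenase (0.16 to 0.32), the TCA cycle (0.07 to 0.21) and transport (0.03 to 0.40). For all members the 95% interval lay above 0 under renewed quantile normalization (0.0051 to 0.23) and with the replicate set as a term (0.00096 to 0.31). It also did over replicates 4 to 6 (0.00021 to 0.40) and without wild-type replicate 1 (0.02 to 0.34) or 3 (0.06 to 0.33). Under the other settings it included 0. The difference turned negative for upper glycolysis (-0.0092 over replicates 1 to 3), the pentose phosphate group (-0.017 without wild-type replicates 2 and 6) and the Pfkfb3, Pfkfb4 and Bpgm group (-0.017 without these, -0.0047 with the erythroid covariate, -0.0020 without Zbtb32-/- replicate 2). The sign turned for Hk1 (0.0091 as the mean of its probe sets, 0.0085 over replicates 1 to 3, 0.074 by its other probe set), for Pgd (-0.10 with array weights, -0.068 with the erythroid covariate, -0.10 without wild-type replicates 2 and 6), for Pfkfb3 (-0.044 with the erythroid covariate, -0.096 without wild-type replicates 2 and 6, -0.10 over replicates 4 to 6) and for Slc16a1 (-0.026 without wild-type replicates 2 and 6). It also turned over replicates 1 to 3 for Bpgm (-0.10), Pgam1 (-0.037), Suclg2 (-0.18) and Mdh1 (-0.039) and over replicates 4 to 6 for Slc2a3 (-0.11). Leaving out 1 array gave ranges of -0.14 to 0.16 for Bpgm, -0.0030 to 0.15 for Pfkfb3, -0.14 to 0.24 for Pgd, -0.056 to 0.66 for Slc2a3 and -0.16 to 0.17 for Suclg2. Members with a positive slope on markers of other cells numbered 1 to 3 on leaving out 1 array, 1 without the array of the highest marker mean, 1 with the replicate set as a term and 0 with the erythroid list alone, and 2 members, Bpgm and Mdh1, had a negative slope with the monocyte list alone. Of 14914 genes, 110, 83 and 1 had a positive slope under the last 3 settings for positive slopes. With the monocyte list alone 452 had a negative slope. The causes were not tested.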
